A study of Mus musculus with 8 samples.

Results

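Cytochrome c and the nuclear-encoded subunits of cytochrome c oxidase come in paired isoforms, and 10 such genes forming 5 pairs were followed here among the 24354 genes measured. The members were taken by symbol: Cycs and Cyct, Cox4i1 and Cox4i2, Cox6a1 and Cox6a2, Cox6b1 and Cox6b2, and Cox7a2 and Cox7a1. All 10 symbols were found. The values are FPKM, fragments scaled to transcript length and library size, from poly-A RNA of 4 mouse cell groups with 2 libraries each.

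The ESCs were the E14 line, labelled wild type and grown in serum and LIF on C3H mouse embryonic fibroblast feeders. The NSCs were OG2+/-/ROSA26+/- cells, bearing an Oct4-GFP reporter and lacZ. They grew on gelatin with EGF and FGF2, without feeders. The EPSCs, extended pluripotent stem cells of the C57BL/6 strain labelled wild type, were line 1 at passage 15. They were held in N2B27 with the LCDM factors (human LIF, CHIR99021, dimethindene maleate and minocycline) on C3H feeders. The hybrid cells were line 2-2 at passage 10, obtained by polyethylene glycol fusion of EPSCs with the NSCs, picked as Oct4-GFP+ colonies, near-tetraploid, and grown like the EPSCs. Both libraries of a group came from 1 line, so the spread between them may be technical, and strain, medium and feeders differ together with cell type.

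Cytochrome c carries electrons from the cytochrome bc1 complex to cytochrome c oxidase, the last enzyme of the respiratory chain, and it also triggers the apoptosome when it leaks into the cytosol. The oxidase has a catalytic core made by the mitochondrial genome and an outer layer of nuclear-encoded subunits, several of which exist as a widespread form and a tissue-restricted form. Cycs is the somatic cytochrome c and Cyct the testis form. Cox4i1 is the common form of subunit 4, and Cox4i2 is the form known from lung and pericytes and from cells at low oxygen. Cox6a1 and Cox7a2 are the widespread forms of subunits 6a and 7a, and Cox6a2 and Cox7a1 are the forms of heart and skeletal muscle. Cox6b1 is the widespread form of subunit 6b, and Cox6b2 is best known from testis and sperm.

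The coding sequences of both cytochromes c are shown because the main result concerns this pair and depends on the genes being told apart. In the GENCODE M21 models each is 318 nt long with the stop codon. The whole sequences differed in 72 of 317 aligned columns. Bases 1 to 300 of each are printed, with capitals for the 66 that differ from the other gene in that stretch.
Cycs: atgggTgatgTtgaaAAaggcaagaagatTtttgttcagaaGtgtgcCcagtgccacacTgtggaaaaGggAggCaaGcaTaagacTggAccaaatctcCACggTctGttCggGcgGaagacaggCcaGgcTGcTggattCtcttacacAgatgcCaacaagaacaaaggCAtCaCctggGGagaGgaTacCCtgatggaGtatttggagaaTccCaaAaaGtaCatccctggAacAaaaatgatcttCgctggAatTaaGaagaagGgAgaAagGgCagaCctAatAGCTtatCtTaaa
Cyct: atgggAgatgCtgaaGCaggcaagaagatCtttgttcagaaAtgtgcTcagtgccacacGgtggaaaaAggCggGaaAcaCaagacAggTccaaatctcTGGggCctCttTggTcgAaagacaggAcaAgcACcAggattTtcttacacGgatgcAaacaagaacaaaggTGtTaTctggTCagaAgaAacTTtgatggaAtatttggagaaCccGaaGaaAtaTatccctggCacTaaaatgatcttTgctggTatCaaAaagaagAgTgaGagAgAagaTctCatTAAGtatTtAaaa
The coding sequences were 77.3% identical, and the longest run shared by both was 14 nt. The longest shared run was 12 to 14 nt in each of the other 4 pairs, whose identity was 65.4% for Cox6b1 and Cox6b2, 66.6% for Cox6a1 and Cox6a2, 66.9% for Cox7a2 and Cox7a1, and 70.5% for Cox4i1 and Cox4i2. Copies outside the pairs are another matter. Cycs matched 9 other GENCODE genes, and Cox6a1 matched 1, at 90% identity or more over at least 100 nt, and none of these was listed in the table. How their reads were assigned is not given in the sources used here, so the levels of Cycs and Cox6a1 are uncertain to that extent.

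The bases just before the transcription start are shown for the pair of cytochromes c and for the subunit 6b pair, whose levels moved apart between the groups. They are the 250 bases before the RefSeq start in GRCm38.p6, all on the minus strand, at chr6:50566570-50566819 for Cycs, chr2:76360454-76360703 for Cyct, chr7:30626115-30626364 for Cox6b1 and chr7:4753095-4753344 for Cox6b2. Capitals mark matches to the motifs searched on both strands.
Cycs: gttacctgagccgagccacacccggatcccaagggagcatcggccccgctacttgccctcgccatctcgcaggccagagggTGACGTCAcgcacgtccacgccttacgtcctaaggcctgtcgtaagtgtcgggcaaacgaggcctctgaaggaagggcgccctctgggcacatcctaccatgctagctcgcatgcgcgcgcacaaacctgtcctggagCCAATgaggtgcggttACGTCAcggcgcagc
Cyct: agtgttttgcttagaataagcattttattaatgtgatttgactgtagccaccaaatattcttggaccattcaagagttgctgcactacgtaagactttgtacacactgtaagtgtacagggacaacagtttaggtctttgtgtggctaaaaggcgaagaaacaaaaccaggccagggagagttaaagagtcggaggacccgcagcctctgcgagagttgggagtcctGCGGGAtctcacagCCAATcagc
Cox6b1: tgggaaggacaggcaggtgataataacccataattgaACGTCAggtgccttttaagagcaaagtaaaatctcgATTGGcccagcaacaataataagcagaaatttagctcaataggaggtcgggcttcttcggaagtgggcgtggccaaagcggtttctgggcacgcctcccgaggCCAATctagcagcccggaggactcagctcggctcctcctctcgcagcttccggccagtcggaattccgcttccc
Cox6b2: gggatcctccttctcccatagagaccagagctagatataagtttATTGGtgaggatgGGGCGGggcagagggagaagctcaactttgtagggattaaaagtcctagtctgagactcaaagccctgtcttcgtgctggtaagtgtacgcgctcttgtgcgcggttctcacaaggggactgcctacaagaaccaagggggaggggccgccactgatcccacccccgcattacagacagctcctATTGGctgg
The letters searched were TGCGCA (the core of the NRF1 site), TGACGTCA (the cAMP response element) with its shorter form TGACGT that lies inside it, CCAAT (the site of NF-Y) with GGGCGG (the GC box), TATAAA (the TATA box) with CACGTG (the E box), and GCGGGA (an E2F-type site). Cycs held 1 TGACGTCA, which 1.55% of the 32851 RefSeq promoters of this length hold, a further TGACGT (6.47% of promoters hold at least 1) and 1 CCAAT (33.8%). Cyct held 1 GCGGGA (16.9%) and 1 CCAAT. Cox6b1 held 1 TGACGT and 2 CCAAT, and Cox6b2 held 2 CCAAT and 1 GGGCGG (32.7%). A match describes the sequence and does not show a bound site. The tissue-restricted genes were the poorer in CpG in each of the 3 pairs for which both promoters were at hand, with 6 CpG in Cyct against 23 in Cycs, 8 in Cox6b2 against 14 in Cox6b1, and 4 in Cox7a1 against 14 in Cox7a2. The median over all promoters was 6. Among the 7 members with a promoter in the table, Cox6a1 had the most CpG, 26, and it was the one with a TGCGCA, a motif that 6.43% of promoters hold.

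The libraries were first checked against their labels. The summed FPKM of 8 pluripotency markers was 4659 to 5685 in the ESC, EPSC and hybrid libraries and 0.519 to 0.550 in the NSC libraries, while 8 neural stem cell markers summed to 3695 and 3750 in the NSCs and to 10.7 to 19.3 elsewhere. The values of all listed genes summed to 415240 and 415412 FPKM in the NSCs against 600674 to 653796 in the other libraries. The scale of the NSC libraries therefore decides the direction of small differences: setting every library to the same sum took the median log2 fold change over every gene in the fit from 0.08 to -0.48 for EPSC against NSC, from 0.06 to -0.51 for hybrid against NSC and from 0.03 to -0.47 for ESC against NSC. Members whose direction turned are named as such. The estimated depth was 22000000 to 32600000 fragments a library. In bulk RNA, fewer cells of a type and less RNA per cell cannot be told apart.

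**Figure D1:**
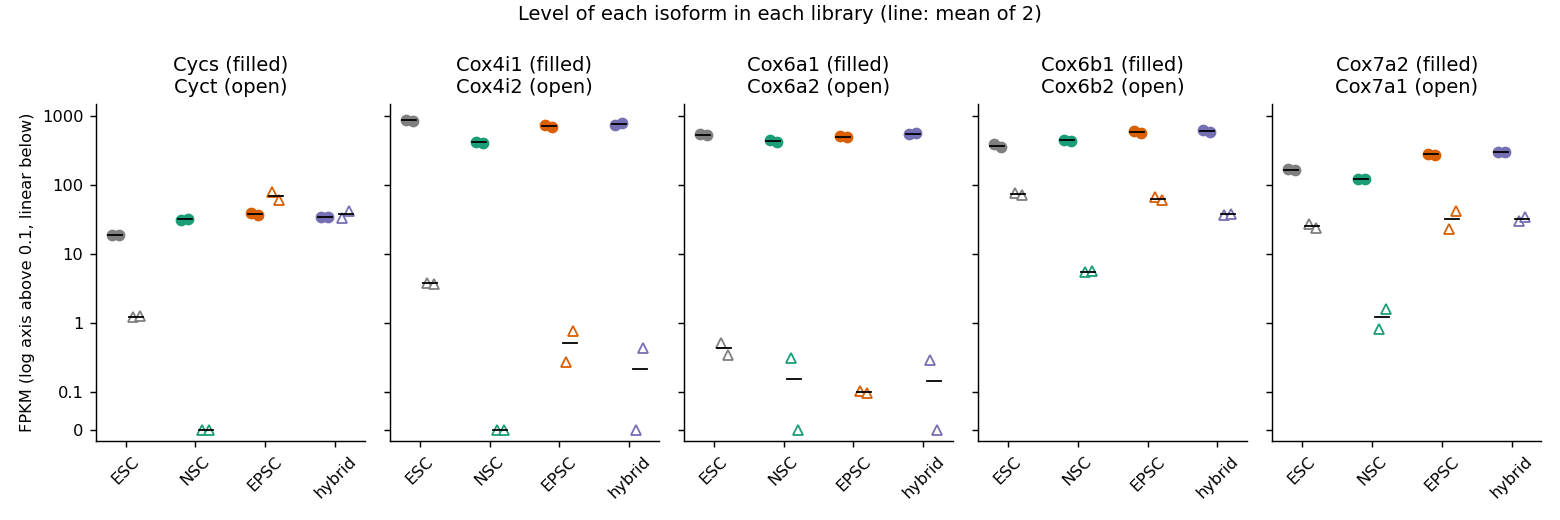
FPKM of the 10 members by library, 1 panel per isoform pair, with filled circles for the widespread isoform, open triangles for the restricted one and a line at the mean of 2 libraries, on an axis that is logarithmic above 0.1. Cyct passes from 0 in both NSC libraries to levels above Cycs in both EPSC libraries, and the other 4 restricted isoforms stay below their widespread partners in every library.

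The testis cytochrome c had a higher FPKM than the somatic one in both EPSC libraries. Cyct measured 78.5 and 60.1 FPKM in the EPSCs, 33.4 and 41.6 in the hybrids, but 1.21 and 1.24 in the ESCs, and it was listed at 0 in both NSC libraries. The 4 groups did not overlap. At the estimated depth these levels correspond to 787 and 628 fragments in the EPSCs, 364 and 430 in the hybrids and 18.0 and 16.9 in the ESCs, and 3 fragments in an NSC library would have been 0.231 or 0.228 FPKM. Against a floor of 3 fragments per NSC library, Cyct was 302-fold higher in the EPSCs and 163-fold higher in the hybrids with deposited values. These are no firm lower bounds, since a listed 0 may be a failed estimate. The floor also rests on the scale of the NSC libraries, the estimated depth, the assumed fragment length and the transcript model. Cycs, whose model is longer, had the more fragments, an estimated 2465 and 2452 in the EPSC libraries.

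Somatic Cycs varied far less. It measured 38.3 and 36.6 FPKM in the EPSCs, 34.2 and 33.5 in the hybrids, 30.8 and 31.9 in the NSCs, and 18.7 and 18.5 in the ESCs. With deposited values the libraries kept this order without overlap, although EPSC and hybrid did not pass the test (log2 fold change -0.14, 95% interval -0.27 to -0.02, limma with Benjamini-Hochberg adjusted p = 0.0666, 0.0518 to 0.226 over the alternatives), nor did hybrid and NSC (0.11, adjusted p = 0.0873). The place of the NSCs in this order depended on the scaling. EPSCs were above NSCs by 0.25 with deposited values (limma with Benjamini-Hochberg adjusted p = 0.00268) but below them at equal sums (-0.35, adjusted p = 0.000361) and 0.03 above after quantile normalization (adjusted p = 0.559), and hybrids were below NSCs at equal sums (-0.50, adjusted p = 4.1e-05) and by -0.07 after quantile normalization (adjusted p = 0.183).

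In per-length units, Cyct thus made up 67.2% and 62.1% of the FPKM of both cytochromes c in the EPSCs, 49.4% and 55.4% in the hybrids, 6.09% and 6.29% in the ESCs and 0% in both NSC libraries. FPKM divides by transcript length, and the longest coding models differ, at 3123 nt for Cycs and 655 nt for Cyct, so the share depends on the models used, which are not given in the sources used here. Their sum was 107 ± 14.2 FPKM in the EPSCs, 71.4 ± 5.25 in the hybrids, 31.3 ± 0.815 in the NSCs and 19.8 ± 0.130 in the ESCs (mean ± SD, n = 2). Where both genes are above 0, a change of their plain FPKM ratio between groups does not depend on length. The plain log2 ratio of Cycs to Cyct was -1.03 and -0.71 in the EPSCs, 0.03 and -0.31 in the hybrids, and 3.95 and 3.90 in the ESCs. The test used the difference of log2(FPKM + 1), in which length does not cancel. On that scale the ratio fell by 3.99 from ESCs to EPSCs (SE 0.14, -4.69 to -3.84 over the alternatives). From NSCs to EPSCs it fell by 5.87 (SE 0.14), a value set by the pseudocount since Cyct was listed at 0 in the NSCs, and the difference was -9.17 with a pseudocount of 0.1. It was 0.72 higher in the hybrids than in the EPSCs (SE 0.14, limma with Benjamini-Hochberg adjusted p = 0.00594, 0.00445 to 0.0598 over the alternatives). With 2 libraries against 2, an exact two-sided permutation test cannot go below p = 0.333, so these tests rest on the spread pooled over all groups and genes.

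**Figure D2:**
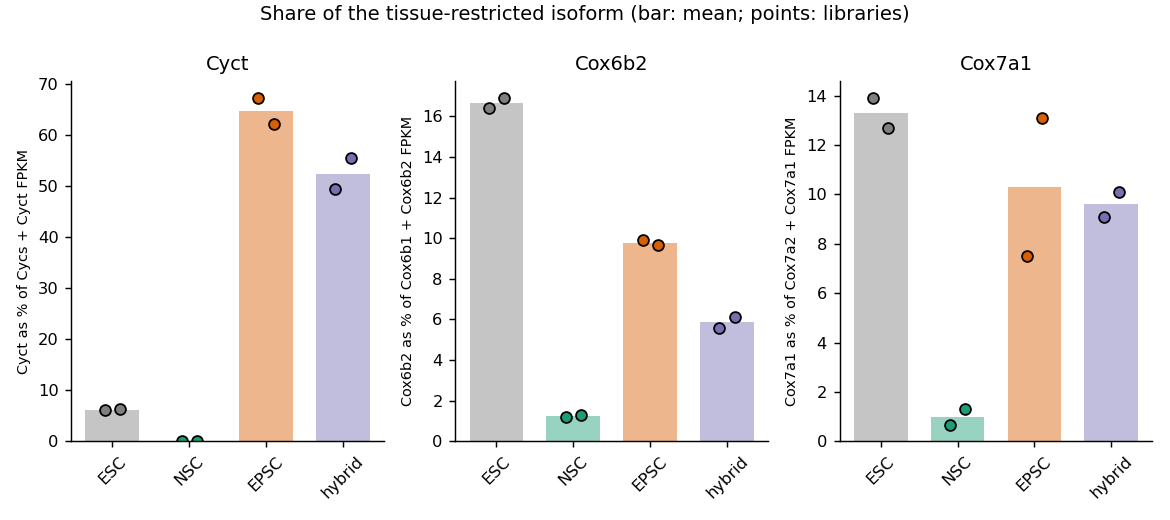
Restricted isoform as a percentage of the summed FPKM of its pair, with bars at the mean of 2 libraries and points for the libraries. Cyct takes 62.1% to 67.2% of its pair in the EPSCs and 0% in the NSCs, while Cox6b2 and Cox7a1 stay at or below 16.9% and 13.9%.

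The rise of Cyct in the EPSCs was among the largest of the transcriptome. On the log2(FPKM + 1) scale, it was 6.12 above the NSCs (SE 0.14, limma with Benjamini-Hochberg adjusted p = 1.5e-08, 2.3e-09 to 6.9e-06 over the alternatives), the 82nd largest change in size of 13239 tested genes. With Cyct at 0 in the NSCs this difference rests on the pseudocount, and it was 5.93 to 9.43 over the alternatives. Against the ESCs it was 4.97 higher (SE 0.14, limma with Benjamini-Hochberg adjusted p = 1.2e-06, 7.6e-07 to 0.000535 over the alternatives), a 56.5-fold ratio of mean FPKM. Only 3 tested genes had a larger increase in that comparison. The hybrid level lay between those of its parents. It was 5.26 above the NSCs and 0.86 below the EPSCs (SE 0.14, limma with Benjamini-Hochberg adjusted p = 0.00313, 0.00257 to 0.0390 over the alternatives), a mean of 37.5 against 69.3 FPKM, while the arithmetic mean of the parents was 34.6 FPKM.

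Testis and germ cell markers were looked at beside Cyct. Of the 10 listed, 6 were tested, and 5 of them were higher in EPSCs than in NSCs under deposited and quantile-normalized values and 6 under equal sums, among them Sycp3 of the synaptonemal complex (log2 fold change 3.83), the germ cell RNA helicase Ddx4 (3.40), the RNA-binding Dazl (3.35) and the piRNA factor Mael (2.56). By group means, 2 of the 6 had the order of Cyct, with EPSCs highest, then hybrids, ESCs and NSCs: Ddx4, at 10.1 and 10.9 FPKM in the EPSCs, 6.03 and 5.48 in the hybrids and 5.19 and 5.17 in the ESCs, and the testis lactate dehydrogenase gene Ldhc, at 3.50 and 3.08, 0.379 and 1.31, and 0.0272 and 0.0889. The other 4 had other orders: Sycp3 was highest in the ESCs at 54.4 and 56.5 FPKM, against 11.3 and 16.5 in the EPSCs, and Dazl, Mael and Tex101 had their highest means in the hybrids, with Dazl at 22.0 and 35.8 against 8.15 and 10.8 in the EPSCs. The sperm protamine gene Prm1 and the transition protein gene Tnp1 were listed at 0 in all 8 libraries, and Pgk2, the testis phosphoglycerate kinase, was at most 0.150. These 3, Ldhc and Tex101 were chosen for mention after their values were seen. The summed level of the list was 37.4 and 47.9 FPKM in the EPSCs, 42.8 and 63.9 in the hybrids, 65.1 and 66.6 in the ESCs, and 0.107 and 0.184 in the NSCs, and its part in the Cyct result was not tested.

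The testis form of subunit 6b had another pattern. Cox6b2 measured 75.9 and 71.5 FPKM in the ESCs, 67.1 and 59.1 in the EPSCs, 36.4 and 37.6 in the hybrids, and 5.39 and 5.60 in the NSCs. The groups did not overlap. Against the NSCs it was 11.5-fold higher in the EPSCs (log2 fold change 3.30, SE 0.07, limma with Benjamini-Hochberg adjusted p = 1.1e-08, 7.2e-09 to 8.1e-06 over the alternatives), 6.73-fold higher in the hybrids (2.55, SE 0.07) and 13.4-fold higher in the ESCs (3.52, SE 0.07). ESCs and EPSCs, neighbours in this order, differed by a log2 fold change of -0.22 for EPSC against ESC (SE 0.07, limma with Benjamini-Hochberg adjusted p = 0.0307, 0.00544 to 0.174 over the alternatives), a call that was lost when ESC replicate 1, ESC replicate 2, NSC replicate 1, NSC replicate 2 or EPSC replicate 2 was left out, or when the fit held the ESCs and EPSCs alone. The hybrids were lower than the EPSCs (-0.75, SE 0.07, limma with Benjamini-Hochberg adjusted p = 0.000417, 0.000241 to 0.0206 over the alternatives), with a mean of 37.0 FPKM where the arithmetic mean of the parents was 34.3.

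Its widespread partner Cox6b1 was the reverse of this in the pluripotent groups, lowest where Cox6b2 was highest. Cox6b1 measured 387 and 351 FPKM in the ESCs, 448 and 432 in the NSCs, 609 and 554 in the EPSCs, and 614 and 575 in the hybrids. EPSCs and hybrids overlapped. The increase from ESCs to EPSCs passed the test (log2 fold change 0.65, SE 0.07, limma with Benjamini-Hochberg adjusted p = 0.000266, 8.1e-05 to 0.00429 over the alternatives), and so did that from ESCs to hybrids (0.69, SE 0.07). Against the NSCs, the difference was 0.40 in the EPSCs and 0.43 in the hybrids with deposited values but -0.21 and -0.19 with equal sums and -0.38 and -0.49 after quantile normalization. The share of Cox6b2 in the pair was therefore 16.4% and 16.9% in the ESCs, 9.92% and 9.65% in the EPSCs, 5.59% and 6.14% in the hybrids, and 1.19% and 1.28% in the NSCs, without overlap. All 6 pairwise differences of the Cox6b1 to Cox6b2 log2 ratio passed the limma test, from 0.78 (SE 0.07) for hybrid against EPSC to -3.78 (SE 0.07) for ESC against NSC.

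The muscle form of subunit 7a separated the NSCs from the 3 pluripotent groups. Cox7a1 measured 27.1 and 23.5 FPKM in the ESCs, 22.9 and 41.0 in the EPSCs, 29.8 and 33.6 in the hybrids, and 0.812 and 1.58 in the NSCs, where it corresponds to an estimated 6.62 and 13.0 fragments. The EPSC libraries lay on either side of all ESC and hybrid libraries, and the 3 pluripotent groups could not be ordered. Mean FPKM was 26.7-fold higher in EPSCs than in NSCs (log2 fold change 3.87, SE 0.27, limma with Benjamini-Hochberg adjusted p = 3.8e-06, 2.2e-06 to 0.000248 over the alternatives), 26.5-fold higher in hybrids (3.92, SE 0.27) and 21.1-fold higher in ESCs (3.60, SE 0.27). Between EPSCs and ESCs the difference was 0.27 (95% interval -0.36 to 0.90), and 0.68 with a call when EPSC replicate 1 was left out. Hybrids and EPSCs differed by 0.05 with a 95% interval of -0.58 to 0.67, which does not show that they are alike.

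Muscle genes were low in the same libraries. Of the 10 heart and skeletal muscle markers, 6 were below the level for testing, including the contractile genes Myh6, Myh7 and Tnnt2 at 0.442 FPKM or less in every library. The 4 tested, the intermediate filament gene Des (log2 fold change 2.57), the myoglobin gene Mb (1.27), the skeletal actin gene Acta1 (0.97) and the cardiac troponin gene Tnni3 (0.46), all rose from NSCs to EPSCs on the deposited scale. So did 45.2% of all tested genes. The list summed to 9.45 and 10.4 FPKM in the EPSCs, 6.88 and 8.05 in the hybrids, 8.34 and 8.75 in the ESCs, and 1.13 and 1.45 in the NSCs, and its part in the Cox7a1 result was not tested.

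Cox7a2, the widespread form, was highest in the hybrids and EPSCs. It measured 298 and 300 FPKM in the hybrids, 282 and 273 in the EPSCs, 168 and 161 in the ESCs, and 123 and 121 in the NSCs. Hybrids and EPSCs did not overlap but did not pass the test (log2 fold change 0.11, 95% interval -0.00 to 0.22). EPSCs exceeded NSCs by 1.18 (SE 0.05, limma with Benjamini-Hochberg adjusted p = 2.0e-07, 1.5e-07 to 3.2e-05 over the alternatives), a difference of 0.57 at equal sums, and exceeded ESCs by 0.75 (SE 0.05), whereas ESC against NSC was 0.43 with deposited values, -0.12 at equal sums and 0.06 after quantile normalization. Cox7a1 held 13.9% and 12.7% of the pair in the ESCs, 7.50% and 13.1% in the EPSCs, 9.10% and 10.1% in the hybrids, and 0.657% and 1.29% in the NSCs.

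Cox4i2 was low in all groups and highest in the ESCs. It measured 3.80 and 3.69 FPKM in the ESCs, 0.265 and 0.758 in the EPSCs, and 0 and 0.424 in the hybrids, and it was listed at 0 in both NSC libraries. EPSCs and hybrids overlapped, and their values corresponded to an estimated 3.12 and 9.27 and to 0 and 5.14 fragments, against 66.1 and 58.8 in the ESCs. Cox4i2 reached the filter of 1 FPKM only in the ESCs, with a mean of 3.74. Its tests against the ESCs are therefore no separate support for its being highest there. Its mean was 7.31-fold higher in ESCs than in EPSCs (log2 fold change -1.67 for EPSC against ESC, SE 0.19, limma with Benjamini-Hochberg adjusted p = 0.000288, 0.000164 to 0.0107 over the alternatives). The size of this difference depended on which EPSC library was kept, at 4.94-fold without EPSC replicate 1 and 14.1-fold without EPSC replicate 2, and the log2 value was -2.78 to -1.43 over the alternatives. Even in the ESCs, Cox4i2 held 0.429% and 0.439% of the subunit 4 pair.

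Cox4i1 made up nearly all FPKM of the subunit 4 pair, with 881 and 836 FPKM in the ESCs, 735 and 791 in the hybrids, 743 and 690 in the EPSCs, and 422 and 400 in the NSCs. Hybrids and EPSCs overlapped. The EPSC excess over NSC was 0.80 on the log2 scale (SE 0.07) with deposited values, 0.18 at equal sums and 0.00 after quantile normalization. For the hybrids it was 0.89 (SE 0.07), 0.27 and -0.01, and for the ESCs 1.06 (SE 0.07), 0.51 and 0.34. The Cox4i1 model overlaps the head of Emc8 on the opposite strand, and the strand setting of the counting is not given in the sources used here.

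Pericyte and vascular smooth muscle markers, and hypoxia-inducible genes, were set beside Cox4i2. Of the 10 pericyte and smooth muscle markers, 4 were below the level for testing, Myh11 and the pericyte markers Rgs5, Abcc9 and Kcnj8, at 0.323 FPKM or less in every library. Of the 6 tested, 2 were higher and 1 lower in EPSCs than in ESCs, and 4 were higher and 2 lower in EPSCs than in NSCs. After quantile normalization the counts were 1 and 1 against the ESCs, and 3 and 2 against the NSCs. Against the ESCs and the NSCs, 61.0% and 86.2% of all tested genes passed, so such counts say little about the markers. The largest differences of EPSCs from NSCs in this list were in the smooth muscle gene Tagln (log2 fold change 2.98), the pericyte proteoglycan gene Cspg4 (-2.65, from 6.91 and 6.52 FPKM in the NSCs to 0.241 and 0.221 in the EPSCs), the receptor gene Notch3 (-1.77) and the smooth muscle actin gene Acta2 (1.07). The list summed to 17.6 and 18.3 FPKM in the ESCs, 22.5 and 19.1 in the EPSCs, 51.4 and 29.5 in the hybrids, and 26.7 and 24.6 in the NSCs. Of 11 tested hypoxia-inducible genes, 2 were higher and 7 lower in EPSCs than in ESCs with deposited values, and 1 was higher and 7 lower under the other scalings. The summed level of the 12 listed was 560 and 551 FPKM in the ESCs, 277 and 261 in the EPSCs, 217 and 220 in the hybrids, and 356 and 323 in the NSCs. Against the NSCs, the largest differences of the EPSCs in this list were in the peptide hormone gene Adm (log2 fold change -3.35), the prolyl hydroxylase gene Egln1 (-2.94), the growth factor gene Vegfa (-2.33) and the glucose transporter gene Slc2a1 (1.78). The part of these genes in the Cox4i2 result was not tested. Another restricted paralog of an oxidase subunit, Ndufa4l2, was 81.2 and 81.7 FPKM in the ESCs, 5.07 and 5.19 in the EPSCs, 0.277 and 0.291 in the hybrids, and 0.0456 and 0.415 in the NSCs. It was 3.75 lower on the log2 scale in EPSCs than in ESCs (SE 0.13, limma with Benjamini-Hochberg adjusted p = 2.4e-06). The further restricted forms Cox7b2, Cox8b and Cox8c did not exceed 1.25 FPKM in any library.

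Nearly all FPKM of the subunit 6a pair came from its widespread form in every library. Cox6a2, the muscle form, was 0.509 FPKM at most, was listed at 0 in NSC replicate 2 and hybrid replicate 2, and held at most 0.0950% of the pair, and it was below the level for a test of its own. It lies within the Itgad gene, which is on the opposite strand. Cox6a1 measured 540 and 556 FPKM in the hybrids, 536 and 530 in the ESCs, 501 and 488 in the EPSCs, and 442 and 422 in the NSCs. The highest group mean exceeded the lowest by 1.27-fold, the smallest range of the 10 members. The excess over the NSCs was 0.20 in the EPSCs, 0.34 in the hybrids and 0.30 in the ESCs on the log2 scale with deposited values, -0.42, -0.28 and -0.25 at equal sums, and -0.60, -0.54 and -0.27 after quantile normalization.

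Across the members, the limma test separated EPSCs from NSCs for 9 of 9 tested genes, all higher in the EPSCs, but 86.2% of all tested genes passed this test, 45.2% higher and 41.0% lower, so the count says little about the members. With equal sums 6 were higher and 3 lower, and after quantile normalization 5 and 2. Leaving out 1 library at a time left 7 to 9 members called: Cox4i2 was lost without NSC replicate 1, NSC replicate 2 or EPSC replicate 2, and Cox6a1 without NSC replicate 2. A change of more than 1 on the log2 scale was passed by 4 of the 9, Cyct, Cox7a1, Cox6b2 and Cox7a2, against 46.9% of all genes. Hybrids exceeded NSCs for 7 of 9 (86.5% of all genes passed in either direction, 44.5% higher and 42.0% lower), and ESCs were higher than NSCs for 7 and lower for 2, Cycs and Cox6b1 (84.7% of all genes, 42.8% higher and 41.9% lower), of which Cox6b1 was lost without ESC replicate 2 or NSC replicate 1. At equal sums 5 were higher and 3 lower in the hybrids and 5 and 4 in the ESCs, and after quantile normalization 4 and 2 in the hybrids and 5 and 3 in the ESCs. These comparisons share the NSC libraries. The 7 members higher in the ESCs include Cox4i2, which reached the filter only in the ESCs, so its call there is no separate support. The study's methods ask for an average FPKM above 3 and a fold change over 3, without saying which average. With the average of the higher group, 3 members were called in EPSCs, 3 in hybrids and 3 in ESCs against the NSCs, where 20.9%, 21.0% and 19.9% of genes were, while 0 were called between hybrids and EPSCs (1.16% of genes), 2 between EPSCs and ESCs (3.40%) and 2 between hybrids and ESCs (4.78%). With the average over both groups, a reading added after the data were seen, Cox4i2 was no longer called in its 3 comparisons with ESCs. The median log2 fold change of the members against the NSCs was 0.80 in EPSCs, 0.89 in hybrids and 1.06 in ESCs with deposited values, 0.57, 0.37 and 0.51 at equal sums and 0.48, 0.13 and 0.34 after quantile normalization, where the medians of all genes were 0.07, 0.06 and 0.06.

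**Figure D3:**
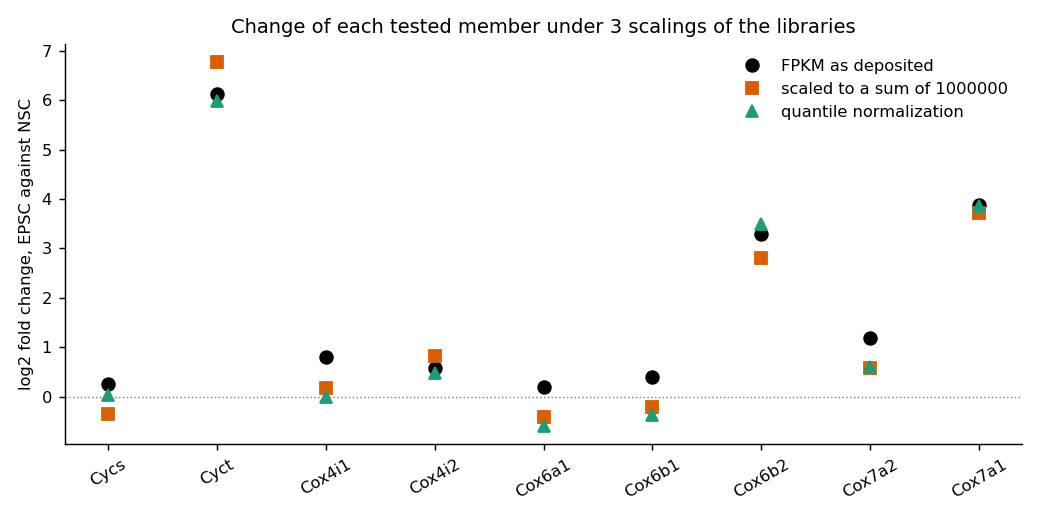
Log2 fold change of EPSC against NSC for the 9 tested members with deposited FPKM, with libraries scaled to equal sums and after quantile normalization. Cyct, Cox6b2, Cox7a1 and Cox7a2 stay above 0.5 under all 3, whereas Cox6a1 and Cox6b1 change sign and Cycs turns to -0.35 at equal sums.

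Between hybrids and EPSCs, 3 of 9 members passed the test, against 44.4% of all tested genes (22.5% higher and 21.9% lower in the hybrids). Cyct and Cox6b2 were lower in the hybrids, and Cox6a1 was higher by 0.15 (SE 0.05, limma with Benjamini-Hochberg adjusted p = 0.0497, 0.0423 to 0.242 over the alternatives). The call for Cox6a1 was lost in 15 of 17 alternatives. In the same comparison 9 of 10 feeder fibroblast markers were higher in the hybrids (8 of 10 under the other scalings), and their sum was 302 and 230 FPKM in the hybrids, 89.7 and 92.0 in the EPSCs, 23.6 and 24.5 in the ESCs, and 18.2 and 20.5 in the NSCs. Its part in the member values was not tested.

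EPSCs and ESCs differed in 7 of 9 members, against 61.0% of all genes (33.7% higher and 27.3% lower in the EPSCs). The members Cyct, Cycs, Cox7a2 and Cox6b1 were higher in the EPSCs, and Cox4i2, Cox4i1 and Cox6b2 were lower. Leaving out 1 library left 5 to 8 members called, and Cox4i1 was lost without ESC replicate 1 or EPSC replicate 2. Cycs was 2.02-fold higher in mean FPKM (log2 fold change 0.97, SE 0.05, limma with Benjamini-Hochberg adjusted p = 1.2e-05, 1.0e-05 to 0.000771 over the alternatives), and this direction held under both other scalings. With either other scaling, 4 were higher and 4 lower. Hybrids differed from ESCs in 6 of 9 (65.5% of all genes, 35.3% higher and 30.2% lower), with Cyct, Cycs, Cox7a2 and Cox6b1 higher and Cox4i2 and Cox6b2 lower (4 higher and 3 lower at equal sums, 4 and 4 after quantile normalization). These comparisons share the ESC libraries. Cox4i2 is counted in both, but it reached the filter of 1 FPKM only in the ESCs. Its calls as lower than the ESCs are therefore no separate support.

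**Figure D4:**
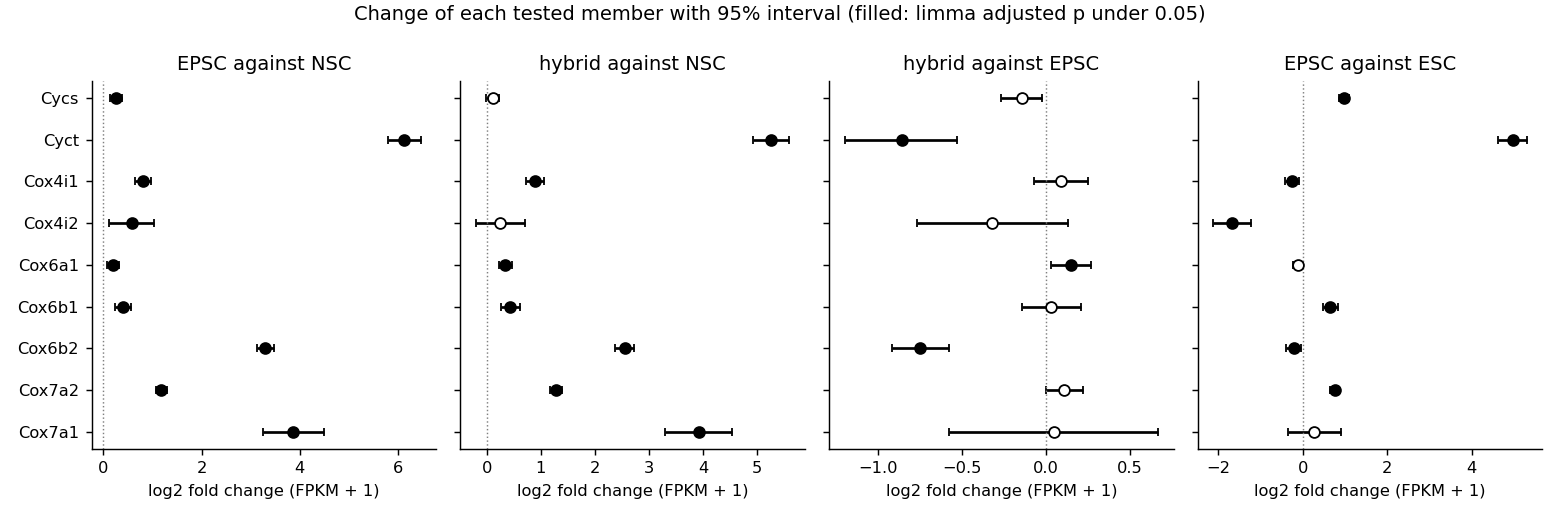
Log2 fold change with 95% interval of the 9 tested members in 4 comparisons, each panel with its own axis, and filled points for a limma adjusted p under 0.05. Cyct moves most against both NSCs and ESCs, and Cyct and Cox6b2 are the members that passed the test as lower in hybrids than in EPSCs.

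The hybrid level was then placed between its parents for the 4 members whose parents differed by at least 1 on the log2 scale, with 0 for the NSC mean and 1 for the EPSC mean. Cyct stood at 0.86 (0.83 and 0.88 in the 2 libraries), Cox6b2 at 0.77 (0.76 and 0.78), Cox7a1 at 1.01 (0.99 and 1.03) and Cox7a2 at 1.09 (1.09 and 1.10). The median over the 6225 genes with such parents was 0.97. The mean of both parents on the log2 scale lies below their arithmetic mean wherever the parents differ. A hybrid level halfway between the parents in FPKM therefore counts as higher in the test that follows. In FPKM, the hybrid means of Cyct and Cox6b2 were 37.5 and 37.0, near the arithmetic parental means of 34.6 and 34.3. Against the mean of both parents on the log2 scale, 7 of 9 members were higher in the hybrids (77.2% of all genes passed in either direction, 38.7% higher and 38.5% lower), with log2 fold changes of 2.20 for Cyct (SE 0.12), 1.98 for Cox7a1 (SE 0.23), 0.90 for Cox6b2 (SE 0.06), 0.70 for Cox7a2 (SE 0.04), 0.49 for Cox4i1, 0.25 for Cox6a1 and 0.23 for Cox6b1, the last 3 turning to -0.01, -0.24 and -0.29 after quantile normalization. The value for Cyct rests on the pseudocount, since Cyct was listed at 0 in the NSCs, and it was 2.04 to 3.83 over the alternatives. At equal sums 5 members were higher and 1 lower, Cycs (-0.32, limma with Benjamini-Hochberg adjusted p = 0.000331), and after quantile normalization 4 were higher and 2 lower, Cox6a1 and Cox6b1.

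**Figure D5:**
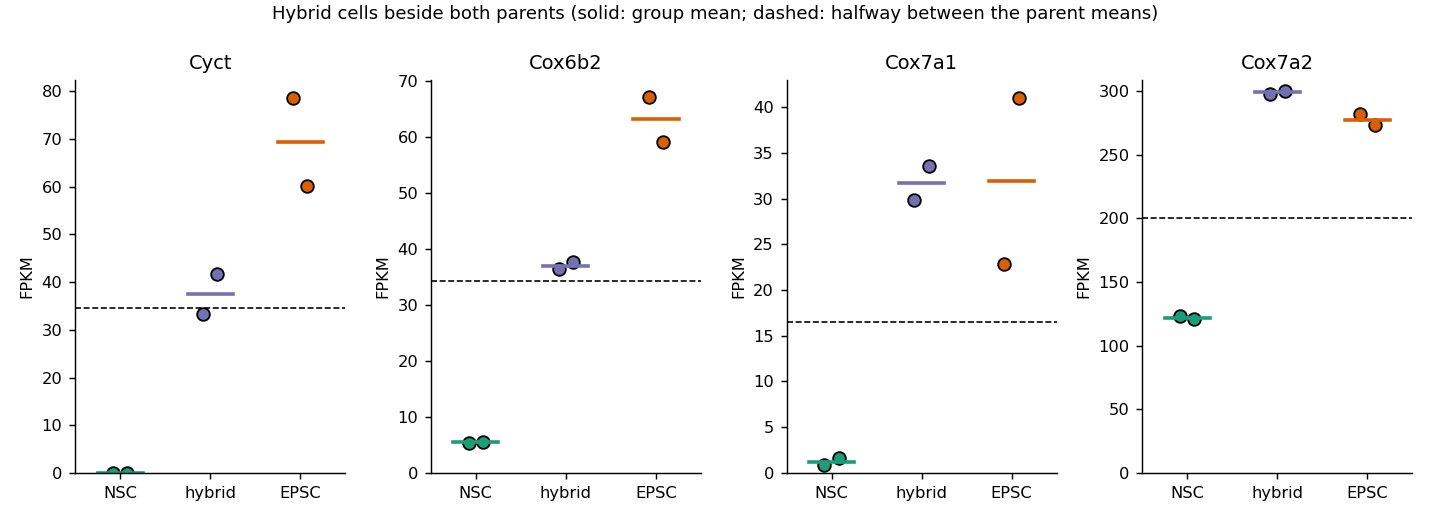
FPKM of Cyct, Cox6b2, Cox7a1 and Cox7a2 in both libraries of the NSCs, hybrids and EPSCs, with solid lines at group means and a dashed line at the arithmetic mean of the parents. Cyct (37.5 FPKM) and Cox6b2 (37.0 FPKM) lie near that line in the hybrids, Cox7a1 lies between both EPSC libraries, and Cox7a2 lies above both.

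The remaining oxidase genes gave a background for these levels. For this and the following gene lists, 45.2% of all tested genes were higher and 41.0% lower in EPSCs than in NSCs. Of 8 other nuclear-encoded subunits, 7 rose from NSCs to EPSCs on the deposited scale, but 5 were higher and 2 lower at equal sums and 5 higher and 3 lower after quantile normalization. The largest differences were in Cox5a (log2 fold change 1.27), Cox6c (1.17), Cox5b (1.11) and Cox7c (1.05), all constant subunits of the enzyme and all positive under the 3 scalings. Between EPSCs and ESCs, 5 of the 8 were higher and the other 3 did not pass, with 2 higher and 1 lower after quantile normalization.

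All 9 genes of the cytochrome bc1 complex, the electron donor of cytochrome c, rose from NSCs to EPSCs on the deposited scale, with Uqcrb (0.98), Uqcr10 (0.86), Uqcrc2 (0.71) and Uqcrc1 (0.67) foremost, but 2 were higher and 4 lower at equal sums and 3 higher and 4 lower after quantile normalization. The 24 assembly factors were split, 9 higher and 8 lower (4 and 14 at equal sums). The copper chaperone gene Cox17 (1.53), the mRNA-binding Lrpprc (1.20), the copper-delivery gene Sco1 (1.19) and Coa7 (1.14) were positive under all 3 scalings, and Hccs, which encodes the lyase that attaches heme to cytochrome c, was 18.5 and 19.6 FPKM in the EPSCs and 17.7 and 20.2 in the NSCs, overlapping. Hccs was chosen for mention for its role and after its values were seen.

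On the side of cell death, 5 of 13 genes of cytochrome c release and the apoptosome were higher and 5 lower in EPSCs than in NSCs (2 and 10 at equal sums, 4 and 6 after quantile normalization). The anti-apoptotic gene Bcl2 was lower (log2 fold change -2.45), as was the caspase inhibitor Xiap (-1.16), and the anti-apoptotic Mcl1 was higher (2.00). Among 12 transcriptional regulators of respiratory genes, 8 were higher and 3 lower (5 and 4 at equal sums). The coactivator gene Ppargc1a was lower (-2.89), from 6.39 and 6.50 FPKM in the NSCs to 0.00717 and 0 in the EPSCs, while Rbpj (2.61), known from Notch signalling and for binding the hypoxia-responsive site of Cox4i2, the coactivator gene Pprc1 (1.88) and the mitochondrial transcription factor gene Tfam (1.34) were higher, all under the 3 scalings.

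The genes most like a member were found by Pearson r over the 8 libraries on the log2(FPKM + 1) scale, as a description, since 4 groups of 2 leave few independent points. For Cyct these were Dctd, Gpx2 and Nap1l1 (r = 0.997 to 0.999), and 30 genes reached 0.99. Gpx2, a glutathione peroxidase gene, rose over a like span, with means of 227 FPKM in the EPSCs, 131 in the hybrids, 1.84 in the ESCs and 0 in the NSCs. For Cox6b2 they were 1110038B12Rik, Nup62 and Naprt, for Cox7a1 they were Nup188, Ccnd3 and Scpep1, and for Cox7a2 they were the proteasome genes Psma3 and Psma7 and the chaperone regulator Ahsa1. Cox4i1 was most like the ribosomal gene Rpl10a, with Supt5 and Elmo3 next, and Cox4i2 was most like Zbtb45, Mroh1 and Prmt8. An r of 0.99 was reached by 125 genes for Cox6b2, 61 for Cox7a2, 51 for Cox4i1, 36 for Cox7a1 and 5 for Cox4i2. Pearson r also takes no account of the size of a change. Nup188 had means of 28.0 FPKM in the NSCs and 51.4 in the EPSCs, beside 1.20 and 31.9 for Cox7a1.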

How the data were processed

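Poly-A RNA of 8 libraries was sequenced as stranded paired reads. Per the study's methods and the labels, the authors trimmed reads with skewer, aligned them to mm10 with STAR 2.7.9a and deposited FPKM per gene from Cuffnorm (Cufflinks 2.2.1), without pooling replicates. The annotation, strand setting and library normalization are not given in the sources used here.

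Groups were compared with limma 3.58.1 in R 4.3.3 (lmFit, eBayes with trend) on log2(FPKM + 1), with 4 groups in one fit (4 residual and 3.25 prior degrees of freedom), over the 13239 genes whose mean FPKM reached 1 in any group. Tests were two-sided, with Benjamini-Hochberg adjustment over all genes tested and a call at an adjusted p under 0.05. Of the 10 members, 9 passed the filter. Isoform ratios were tested by adding the log2 difference of each pair to the same fit without trend. Intervals are at 95%. Data were simulated for hybrid against EPSC over 13239 genes. Of these, 91 of 100 genes changed by 1 and 99 of 100 changed by 2 on the log2 scale were called, with 6 false calls. The changed genes were drawn from those well above the filter in the EPSCs, and every other gene had the same level in all groups. The shares found therefore do not carry over to members with low values. Depth was estimated from low values of genes with 1 transcript, with 200 nt taken as the fragment length, and intervals cover spread between libraries only. FPKM values of 0 may be failed estimates: 45 genes were at 0 in 1 library of a group and above 10 FPKM in the other, while 15 genes used by every cell were at 0 in no library.

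All members were named, and from each gene list at most the 4 called genes with the largest change between EPSC and NSC. One gene that this rule names is not reported here. The members and lists were chosen with earlier results of these data known. Alternatives were other pseudocounts (0.1, 0.5), filters and scalings, quantile normalization, a replicate block, fits with only the groups compared, no trend, the rule of the study's methods (average FPKM over 3, read in 2 ways, and a ratio over 3) and leaving out each library. Positions and promoters are RefSeq GRCm38.p6, with promoters for 7 members, and coding sequences are GENCODE M21. Python 3.11.15 was used for the rest.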

Additional observations from a re-analysis of the deposited data

How the results depend on the processing

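The alternatives were fixed with earlier results of these data known, and 1 was added after the data were seen, a second reading of the study's rule. Each member log2 fold change had 17 alternatives, each isoform ratio difference 15 and each isoform share 3. Counted over these, 993 fold changes and 415 ratio differences kept their direction and side of the threshold, and 33 and 17 changed direction. A further 33 and 5 lost their call, and 12 and 13 gained one. The share values are no test of stability. Setting a library to a sum leaves its shares unchanged, and either of 2 libraries lies within 1 SD of their mean. The rule of the study's methods called fewer genes, 3809 for EPSC against NSC, 3844 for hybrid against NSC, 3650 for ESC against NSC, 211 for hybrid against EPSC, 625 for EPSC against ESC and 884 for hybrid against ESC, and 3, 3, 3, 0, 2 and 2 members in that order. It asks for a ratio over 3. Read as a mean over both groups above 3 FPKM, it called 3182, 3252, 3051, 170, 467 and 634 genes and 3, 3, 2, 0, 1 and 1 members. With only EPSCs and hybrids in the fit, 2811 genes were called between them, against 5881 in the main fit. The same kind of fit called 8050 genes for EPSC against ESC (8079 in the main fit) and 11800 for ESC against NSC (11212). The cause of these moves was not tested.

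At equal sums, direction changed against the NSCs for Cox6a1 (-0.42 in EPSCs, -0.28 in hybrids, -0.25 in ESCs), Cox6b1 (-0.21 in EPSCs, -0.19 in hybrids), Cycs (-0.35 in EPSCs, -0.50 in hybrids) and Cox7a2 (-0.12 in ESCs), for Cox6a1 in hybrid against ESC (-0.03), and for Cox6a1 (-0.07) and Cox6b1 (-0.08) in hybrid against the mean of both parents. After quantile normalization it changed against the NSCs for Cox6a1 (-0.60 in EPSCs, -0.54 in hybrids, -0.27 in ESCs), Cox6b1 (-0.38 in EPSCs, -0.49 in hybrids), Cox4i1 (-0.01 in hybrids) and Cycs (-0.07 in hybrids), in hybrid against EPSC for Cox4i1 (-0.01) and Cox6b1 (-0.10), in hybrid against ESC for Cox6a1 (-0.27), and against the mean of both parents for Cox4i1 (-0.01), Cox6a1 (-0.24) and Cox6b1 (-0.29). The cause was not tested beyond the rescaling itself.

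The Cox4i1 to Cox4i2 ratio of EPSC against NSC turned to -1.69 and -0.17 with pseudocounts of 0.1 and 0.5, -0.64 at equal sums and -0.57 after quantile normalization, and that of hybrid against NSC to -0.30 with a pseudocount of 0.1, -0.10 at equal sums and -0.23 after quantile normalization. The Cox6a1 to Cox6a2 ratio turned to -0.23 and -0.47 in EPSC against NSC and to -0.14 and -0.44 in hybrid against NSC, at equal sums and after quantile normalization. Cox6a2 in every group, and Cox4i2 outside the ESCs, lie near the detection limit, so no result above rests on the ratio difference of either pair.

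Leaving out 1 library at a time gave ranges that crossed or reached 0 only for differences that had not passed the test: Cox4i2 in hybrid against NSC (0.00 to 0.51) and against the mean of both parents (-0.29 to 0.22), Cox6b1 (-0.04 to 0.10) and Cox7a1 (-0.36 to 0.45) in hybrid against EPSC, Cox7a1 in EPSC against ESC (-0.13 to 0.68), Cycs against the mean of both parents (-0.03 to 0.00), and the ratios of Cox4i1 to Cox4i2 in EPSC against NSC (-0.07 to 0.51), of Cox6a1 to Cox6a2 in ESC against NSC (-0.17 to 0.14) and hybrid against EPSC (-0.09 to 0.31), and of Cox7a2 to Cox7a1 in hybrid against EPSC (-0.37 to 0.49).

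The replicate numbers pair nothing that the labels state, and deviations of same-numbered libraries correlated at -0.11 to 0.28. With the replicate block, 11441 genes were called for EPSC against NSC and 6060 for hybrid against EPSC. Among the members the block ended 1 call, Cox6a1 in hybrid against EPSC (0.15, adjusted p = 0.0532), and it brought the Cox6a1 to Cox6a2 ratio past the threshold in hybrid against NSC (0.35) and hybrid against ESC (0.37).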
